A study of Mus musculus with 12 samples.

Results

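The BMP ligands described here are 6 genes, Bmp2, Bmp4, Bmp5, Bmp6, Bmp7 and Bmp10, of 18194 genes measured in ventricles of mouse embryos. They were taken by gene symbol from the platform annotation and hold 10 of the 34958 probe sets with 1 symbol. Each gene is read from its probe set with the highest mean over the 12 arrays, and the other sets of Bmp5 and Bmp7 are given beside it. Affymetrix arrays were hybridised with RNA of left and right ventricles (LV and RV) at 14.5 days post coitum. The groups were Nos3-/- embryos of strain B6.129P2-Nos3tm1unc/J (KO) and wild-type CD1 embryos (WT), each with RV and LV and 3 arrays per group. KO embryos are homozygous for a targeted allele of endothelial nitric oxide synthase in every cell. Each array carried a pool of 15 to 30 embryos, so single embryos cannot be followed. All KO pools were of one strain and all WT pools of another, so what the Nos3 allele does and what the strain does cannot be told apart in any comparison of KO with WT. Whether RV and LV pools of one number came from the same embryos is not stated. Values are log2 expression as deposited, and every difference is on that scale, KO minus WT or RV minus LV. A gene is called where its limma p-value, adjusted over all 18194 genes, is under 0.05, and only called genes are said to rise or fall.

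Bone morphogenetic proteins are secreted dimers of the TGF-beta superfamily. They assemble type I and type II serine/threonine kinase receptors, which phosphorylate Smad1, Smad5 and Smad9. These Smads enter the nucleus with Smad4 and switch on genes such as the Id genes and the inhibitory Smad6 and Smad7. Secreted proteins such as noggin, chordin and gremlin bind the ligands and keep them from their receptors. In the embryonic heart Bmp2 of the atrioventricular canal starts cushion formation, Bmp4 acts in the outflow tract and its septation, Bmp5, Bmp6 and Bmp7 are related and partly interchangeable, and Bmp10 of trabecular myocardium keeps ventricular cells dividing. In mouse embryos the loss of Bmp10 stops growth of the ventricular wall.

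Array medians lay between 5.57 and 5.74, and correlations between arrays across genes between 0.983 and 0.998. WT RV replicate 3 stood apart from its group in the 24 probe sets of poly-A control transcripts, which are added before labelling. They averaged 8.96 on it and 8.89 to 8.94 on the WT LV arrays, against 7.35 to 8.47 on the other 8 arrays. The KO RV arrays also spread widely, at 7.35, 7.90 and 8.37. In the left ventricle the controls were high on every WT array and on no KO array. Control level and genotype therefore cannot be told apart in KO minus WT of that ventricle. The counts and differences below that change their call without WT RV replicate 3 are given both ways. Nos3 was called lower in KO in both ventricles, with 7.77 to 8.23 in KO RV against 8.37 to 8.94 in WT RV, and 7.86 to 8.02 in KO LV against 8.30 to 8.39 in WT LV (differences of -0.66 and -0.41, limma adjusted p = 0.00983 and 0.0376). The position of its one probe set relative to the targeted exons was not examined, so this level is no check of the allele. Leaving out any 1 of the 6 LV arrays ended the LV call of Nos3 (-0.445 to -0.365). The ventricular markers Myl2, Myh7, Myl3, Irx4, Hey2, Tnnt2 and Actn2 all averaged above 5.67, the median of all values.

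Bmp2, the ligand that patterns atrioventricular canal myocardium and endocardial cushions, had, with Bmp5, the largest genotype difference of the members in the left ventricle. Its only probe set, 1423635_at, read 7.77, 8.06 and 7.96 in KO RV against 7.44, 7.31 and 6.99 in WT RV. In the left ventricle it read 8.14, 8.10 and 8.02 in KO against 6.44, 6.71 and 6.49 in WT. Every KO array lay above every WT array in both ventricles, and the 6 KO arrays lay within a narrow band whatever the ventricle. Bmp2 rose in KO by 0.68 in the right (SE 0.12, limma adjusted p = 0.00369) and by 1.54 in the left ventricle (SE 0.12, adjusted p = 2.61e-06), 1.61-fold and 2.91-fold. In the left ventricle 0.407% of all genes differed at least as much. The 2-sided exact permutation p was 0.1 in each ventricle, the smallest that 3 against 3 arrays allow.

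Between ventricles, Bmp2 differed in WT embryos. WT RV averaged 7.25 ± 0.23 and WT LV 6.55 ± 0.14 (SD, n = 3 each), a rise of 0.70 in the right (SE 0.12, adjusted p = 0.0132). KO RV averaged 7.93 ± 0.15 and KO LV 8.09 ± 0.06, and that difference of -0.16 was not called (adjusted p = 0.746, 95% interval -0.42 to 0.10). From high to low the order was KO LV, KO RV, WT RV and WT LV. The first 2 of these overlap, and each later step was called. WT RV replicate 3 had the lowest Bmp2 value of its group. Without it the RV minus LV difference in WT was 0.83 (adjusted p = 0.00168) and the KO minus WT difference in the right ventricle 0.555 (adjusted p = 0.0114). The call between WT ventricles was lost without WT LV replicate 1 (0.65, adjusted p = 0.0634), WT RV replicate 1 (0.60) or WT RV replicate 2 (0.67), and with a term that marks the 4 arrays with high control transcripts (0.44, adjusted p = 0.259).

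**Figure D1:**
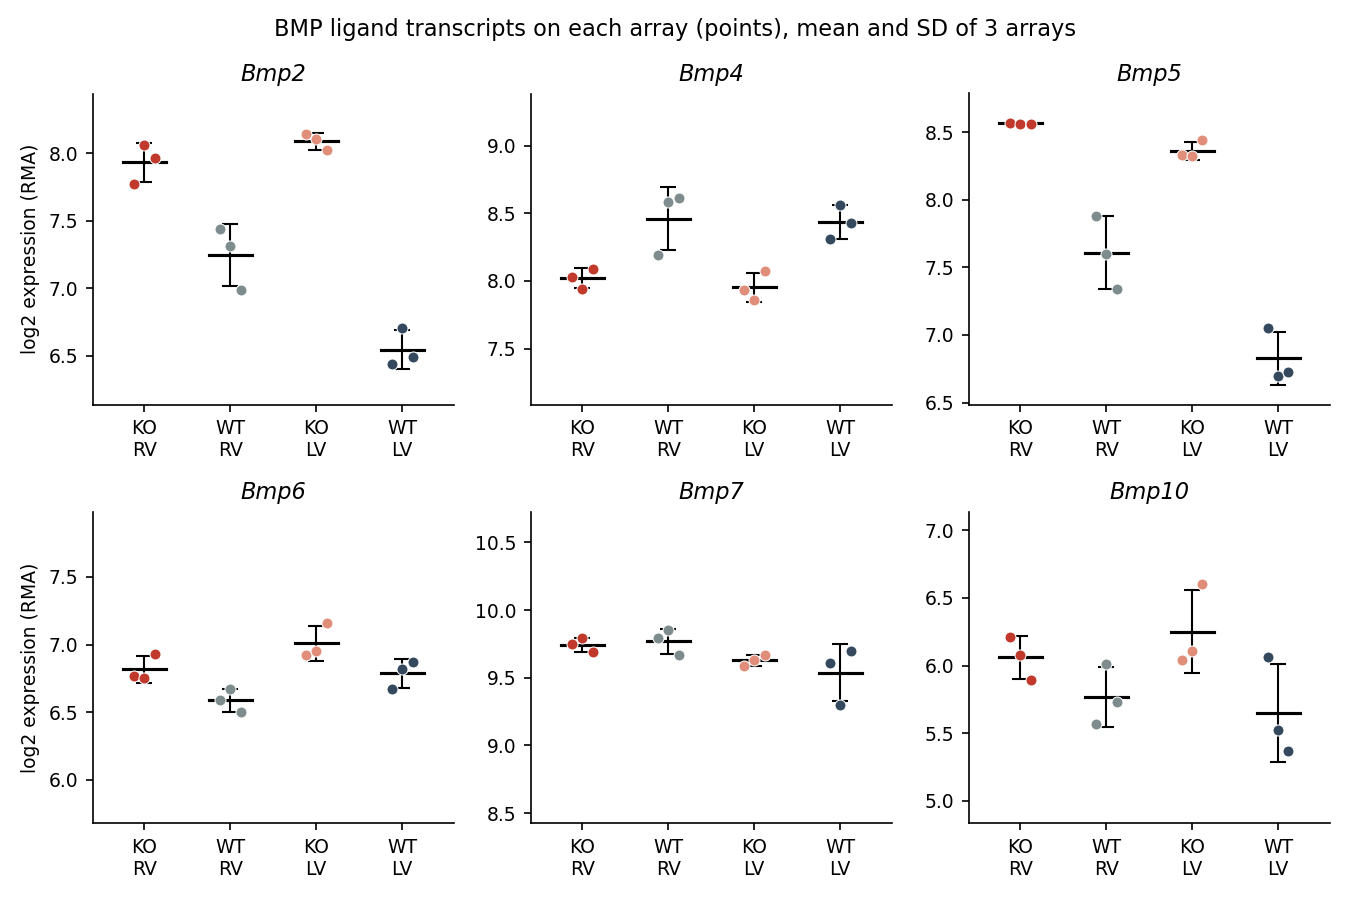
Log2 expression of each BMP ligand (y axis, the same span in every panel) on the 12 arrays in KO RV, WT RV, KO LV and WT LV (x axis); points are arrays, the long bar is the mean and the error bar the SD of 3 arrays. KO arrays of Bmp2 and Bmp5 lie above all WT arrays of the same ventricle, those of Bmp4 lie below, and those of Bmp7 overlap WT.

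Bmp5, a ligand of the Bmp5, Bmp6 and Bmp7 subfamily that acts redundantly with Bmp7 in the mouse heart, had the largest difference of the members in the right ventricle. Its brightest probe set, 1455851_at, read 8.57, 8.56 and 8.56 in KO RV against 7.88, 7.60 and 7.34 in WT RV. In the left ventricle it read 8.33, 8.32 and 8.44 in KO against 7.05, 6.70 and 6.73 in WT. No KO array overlapped a WT array of either ventricle, and the KO RV arrays were nearly equal. Bmp5 rose in KO by 0.96 in the right (SE 0.13, adjusted p = 0.000421) and by 1.54 in the left ventricle (SE 0.13, adjusted p = 4.01e-06), 1.94-fold and 2.90-fold. Genes that differed at least as much made up 0.984% and 0.418% of all genes.

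As with Bmp2, WT embryos had more Bmp5 in the right ventricle. WT RV averaged 7.61 ± 0.27 and WT LV 6.83 ± 0.19 (SD, n = 3 each), a rise of 0.78 (SE 0.13, adjusted p = 0.0091). In KO embryos RV averaged 8.56 ± 0.01 and LV 8.36 ± 0.07. That difference of 0.20 was not called (adjusted p = 0.662, 95% interval -0.07 to 0.47), although the 2 groups do not overlap. The order was KO RV, KO LV, WT RV and WT LV. The step between KO LV and WT RV was not tested, but the lowest KO LV array, at 8.32, exceeded the highest WT RV array, at 7.88. Without WT RV replicate 3, the lowest of its group, the RV minus LV difference in WT was 0.91 (adjusted p = 0.00144) and the KO minus WT difference in the right ventricle 0.82 (adjusted p = 0.0013). The call between WT ventricles was lost without WT LV replicate 2 (0.72, adjusted p = 0.059) and with the control-transcript term (0.51, adjusted p = 0.221).

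The other sets of Bmp5 had means below 5.67, the median of all values, and gave smaller differences. Set 1421283_at, which averaged 5.57 over all arrays, read 5.69 to 5.76 in KO RV against 5.0 to 6.01 in WT RV, and 5.60 to 5.67 in KO LV against 5.06 to 5.60 in WT LV. Its differences of 0.14 and 0.33 were not called over all probe sets (adjusted p = 0.744 and 0.281). Set 1421282_at, which averaged 4.42, read 4.59 to 4.67 in KO RV against 4.06 to 4.49 in WT RV, and 4.56 to 5.12 in KO LV against 3.84 to 4.05 in WT LV. It rose in KO in the left ventricle by 0.78 (SE 0.15, adjusted p = 0.00375 over all probe sets) and differed by 0.35 in the right (adjusted p = 0.201). All 3 sets thus had a positive difference in both ventricles. With the mean of the 3 sets as the value of the gene, Bmp5 rose in KO by 0.48 in the right (adjusted p = 0.0191) and by 0.88 in the left ventricle (adjusted p = 0.000164). In WT the RV minus LV difference by that mean was 0.46 and no longer called (adjusted p = 0.081).

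**Figure D2:**
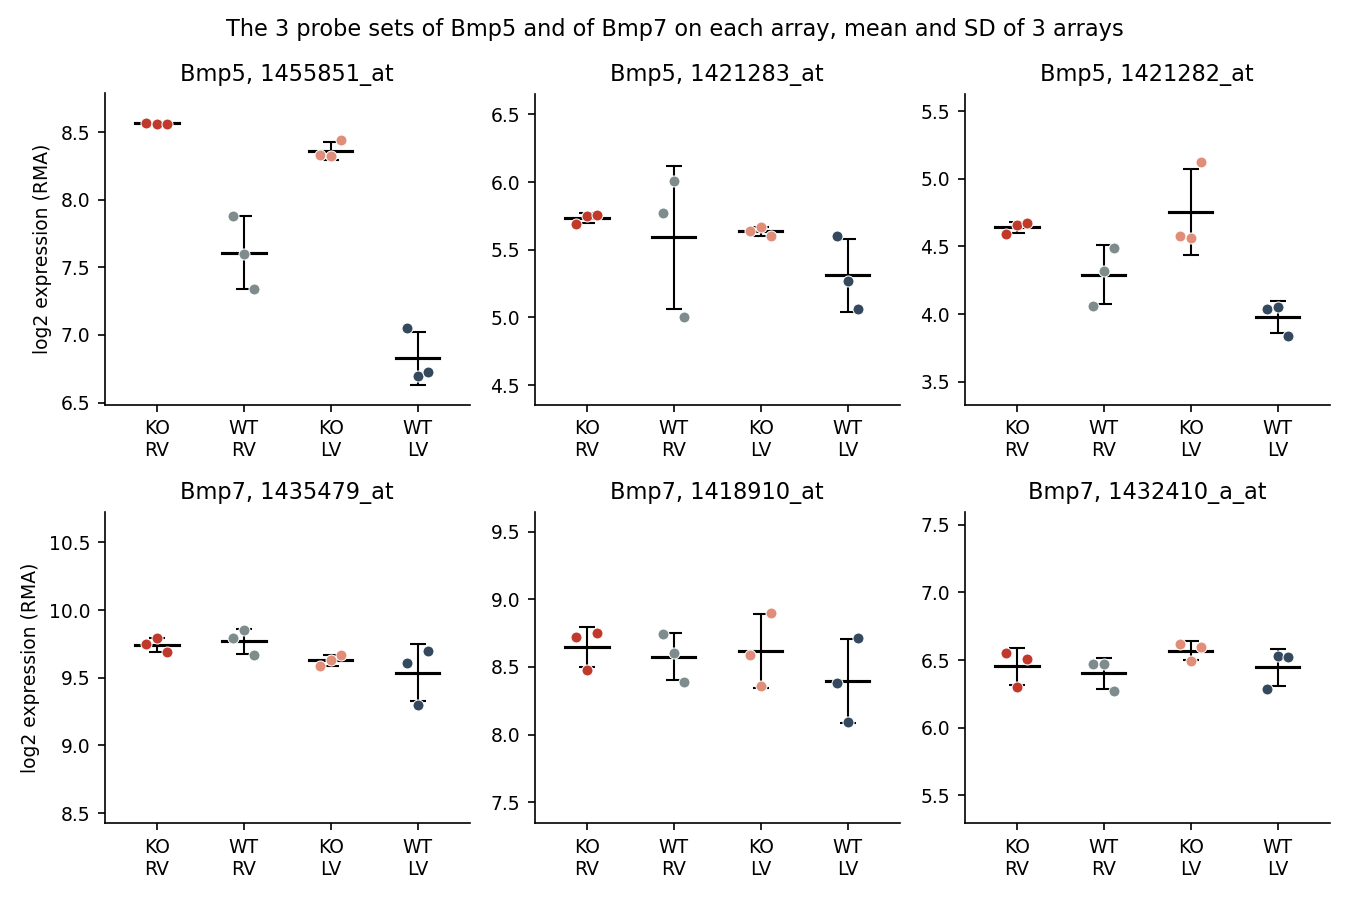
Log2 expression (y axis, the same span in every panel) of the 3 probe sets of Bmp5 (top) and of Bmp7 (bottom) in KO RV, WT RV, KO LV and WT LV (x axis), brightest set at the left; points are arrays, bars the mean and SD of 3 arrays. The genotype difference of Bmp5 is largest in its brightest set, 1455851_at, and none of the sets of Bmp7 separates KO from WT in both ventricles.

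The promoter table drawn from RefSeq (build GRCm38.p6, from 250 bases before to 50 after a gene's start) matched 4 of the 6 members, Bmp4, Bmp5, Bmp6 and Bmp10. Those of Bmp4, Bmp5 and Bmp10 are shown because these transcripts were called different between KO and WT, Bmp5 and Bmp10 upward and Bmp4 downward. Both strands were searched for TATAAA (the TATA box), GGGCGG (the GC box bound by Sp1), AGATAA (bound by GATA factors), TNAAGTG (bound by Nkx2-5), GAGACC (a shear stress response element of vascular genes) and GGCGCC (a GC-rich element of BMP target genes). Matches are printed in capitals and did not overlap. The promoter of Bmp5, on the + strand at chr9:75775115-75775414, held none of the 6 motifs. Its GC content was 43.3%, against a median of 52.7% over 32851 promoters.
Bmp5: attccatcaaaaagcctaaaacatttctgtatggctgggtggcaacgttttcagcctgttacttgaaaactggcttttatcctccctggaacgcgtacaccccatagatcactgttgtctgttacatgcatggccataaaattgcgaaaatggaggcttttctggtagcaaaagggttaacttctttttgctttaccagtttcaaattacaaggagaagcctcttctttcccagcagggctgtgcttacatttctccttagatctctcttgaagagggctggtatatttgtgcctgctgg

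Bmp4, the ligand closest to Bmp2 in its family and known for its role in outflow tract septation, moved the other way. Its only probe set, 1422912_at, read 8.03, 7.94 and 8.09 in KO RV against 8.19, 8.58 and 8.61 in WT RV. In the left ventricle it read 7.93, 7.86 and 8.07 in KO against 8.31, 8.56 and 8.43 in WT. The KO arrays lay below all WT arrays in both ventricles, with the closest pair at 8.09 in KO RV and 8.19 in WT RV. Bmp4 fell by 0.44 in the right (SE 0.12, adjusted p = 0.0325) and by 0.48 in the left ventricle (SE 0.12, adjusted p = 0.00703). Without WT RV replicate 3 the right ventricle difference was -0.365 and not called (adjusted p = 0.11). That call was also lost without KO RV replicate 1 (-0.445), replicate 2 (-0.40) or replicate 3 (-0.475), or without WT RV replicate 2 (-0.38). Differences that large or larger were found in 7.13% of all genes in the right and 16.4% in the left ventricle.

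Bmp4 did not separate the ventricles. KO RV averaged 8.02 ± 0.08 and KO LV 7.95 ± 0.11, a difference of 0.07 (95% interval -0.18 to 0.32). WT RV averaged 8.46 ± 0.23 and WT LV 8.43 ± 0.125 (SD, n = 3 each), a difference of 0.03 (95% interval -0.22 to 0.28), and neither was called (adjusted p = 0.905 and 0.926). The order from high to low was WT RV, WT LV, KO RV and KO LV, in which the neighbours of one genotype overlap. The Bmp4 promoter, on the - strand at chr14:46390620-46390919, held 1 GC box and no other motif searched, and 35.7% of all promoters hold a GC box. Its GC content was 64.0%, higher than that of 79.7% of promoters.
Bmp4: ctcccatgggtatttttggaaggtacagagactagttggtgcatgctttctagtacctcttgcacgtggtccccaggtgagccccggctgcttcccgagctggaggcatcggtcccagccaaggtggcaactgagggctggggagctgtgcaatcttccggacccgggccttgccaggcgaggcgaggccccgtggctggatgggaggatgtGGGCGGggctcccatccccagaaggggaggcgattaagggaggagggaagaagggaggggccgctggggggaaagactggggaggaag

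Bmp10, which in the mouse sustains proliferation of trabecular myocardium, averaged 5.93, close to the median of all values. The single set for it, 1421763_at, read 6.21, 6.08 and 5.89 in KO RV against 5.57, 6.01 and 5.73 in WT RV. In the left ventricle it read 6.04, 6.11 and 6.60 in KO against 6.06, 5.52 and 5.37 in WT. The genotypes overlap in both ventricles, and KO LV replicate 3 and WT LV replicate 1 are the highest of their groups. Bmp10 rose in KO left ventricles by 0.60 (SE 0.18, adjusted p = 0.0245, 2-sided exact permutation p = 0.2). The difference of 0.29 in the right ventricle was not called (adjusted p = 0.339, 95% interval -0.11 to 0.69). The left ventricle call was lost without KO LV replicate 3 (0.425), WT LV replicate 2 (0.535) or WT LV replicate 3 (0.46).

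In neither genotype did Bmp10 separate the ventricles. RV minus LV was -0.19 in KO (6.06 ± 0.16 against 6.25 ± 0.31, adjusted p = 0.804) and 0.12 in WT (5.77 ± 0.22 against 5.65 ± 0.36, SD, n = 3 each, adjusted p = 0.774). All 4 groups overlap with their neighbours in the order KO LV, KO RV, WT RV and WT LV. The promoter of Bmp10, on the + strand at chr6:87428744-87429043, held AGATAA at 2 places, the nearer one 33 bases before the start, and 11.2% of promoters hold that motif at least once. It also held GAGACC on the other strand, just after the start, as 16.4% of promoters do on either strand.
Bmp10: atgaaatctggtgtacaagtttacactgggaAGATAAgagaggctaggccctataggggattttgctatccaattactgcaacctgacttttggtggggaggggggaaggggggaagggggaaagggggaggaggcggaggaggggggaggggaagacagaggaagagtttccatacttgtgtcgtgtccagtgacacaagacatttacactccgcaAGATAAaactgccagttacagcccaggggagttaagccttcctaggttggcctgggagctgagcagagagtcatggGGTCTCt

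Bmp6 and Bmp7, the remaining ligands of the Bmp5 subfamily, were not called in any of the 5 comparisons. Bmp6, also known as an inducer of hepcidin in the liver, read 6.77, 6.75 and 6.93 in KO RV against 6.59, 6.67 and 6.50 in WT RV (probe set 1450759_at). Its left ventricle values were 6.92, 6.95 and 7.16 in KO against 6.67, 6.82 and 6.87 in WT. The KO arrays lay above all WT arrays in each ventricle, but the differences of 0.23 and 0.22 did not pass (adjusted p = 0.151 and 0.0938, 95% intervals 0.02 to 0.44 and 0.02 to 0.43). Its RV minus LV differences were -0.19 in KO and -0.20 in WT (adjusted p = 0.531 and 0.308). The order was KO LV (7.01 ± 0.13), KO RV (6.82 ± 0.10), WT LV (6.79 ± 0.10) and WT RV (6.59 ± 0.085; SD, n = 3 each), in which each neighbour overlaps the next.

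Bmp7, which is broadly expressed in embryonic myocardium, had the smallest genotype differences of the members. Its brightest set, 1435479_at, read 9.75, 9.79 and 9.69 in KO RV against 9.79, 9.85 and 9.67 in WT RV. In the left ventricle it read 9.59, 9.63 and 9.67 in KO against 9.61, 9.30 and 9.70 in WT. The genotypes overlap in both ventricles. The KO minus WT difference was -0.03 in the right (95% interval -0.25 to 0.19) and 0.09 in the left ventricle (-0.13 to 0.31), with adjusted p = 0.894 and 0.526. These intervals exclude a change as large as that of Bmp2 or Bmp5. In the other sets, 1418910_at and 1432410_a_at, the differences were 0.07 and 0.05 in the right and 0.22 and 0.12 in the left ventricle, none called over all probe sets. RV minus LV was 0.11 in KO (adjusted p = 0.791) and 0.23 in WT (adjusted p = 0.266). The groups were ordered WT RV (9.77 ± 0.09), KO RV (9.74 ± 0.05), KO LV (9.63 ± 0.04) and WT LV (9.54 ± 0.21), with no tested step called.

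**Figure D3:**
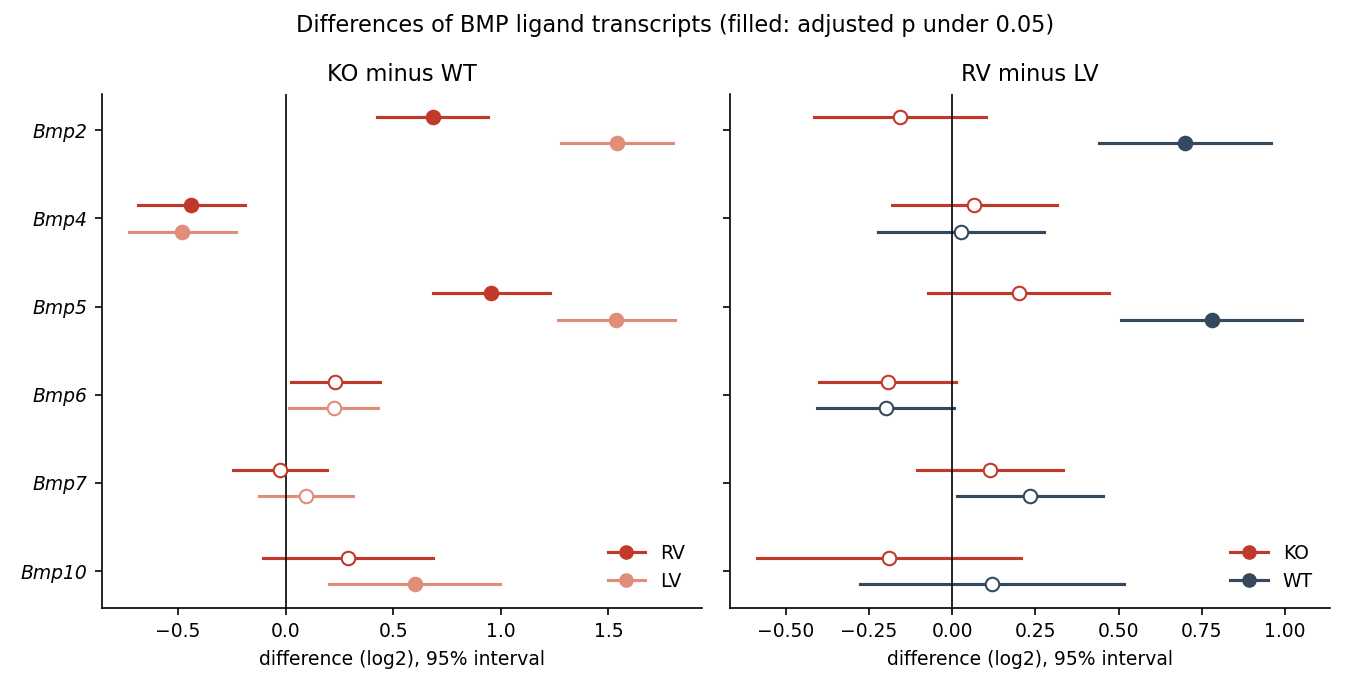
Differences of the 6 BMP ligands on the log2 scale (x axis) with 95% intervals from limma: KO minus WT in RV and LV at the left, RV minus LV in KO and WT at the right; filled points have an adjusted p under 0.05. KO minus WT is called in both ventricles for Bmp2, Bmp5 and Bmp4, with Bmp4 negative, and RV minus LV only in WT and only for Bmp2 and Bmp5.

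Over the 6 members, 2 rose (Bmp2 and Bmp5) and 1 fell (Bmp4) in KO right ventricles. There 8.19% of all genes were called, 4.61% higher and 3.58% lower. Without WT RV replicate 3 the call of Bmp4 was lost, and 967 genes were called there, against 1490 with all arrays. In KO left ventricles 3 rose (Bmp2, Bmp5 and Bmp10) and 1 fell (Bmp4), where 30.9% of all genes were called, 18.6% higher and 12.3% lower. The median difference of the members was 0.26 in the right and 0.41 in the left ventricle, beside -0.04 and -0.01 over all genes. The groups did not overlap for 4 of 6 members in each ventricle (Bmp2, Bmp4, Bmp5 and Bmp6), against 29.4% of all genes in the right (11.8% higher and 17.6% lower in KO) and 44.4% in the left ventricle (23.8% higher and 20.6% lower). Bmp2, Bmp4 and Bmp5 were called in the same direction in both ventricles, as were 6.24% of all genes. A change in the number of cells that make a ligand and a change of its RNA in each such cell cannot be told apart in these pools.

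In RV minus LV, 0 of 6 members were called in KO by limma, where 0 of 6 also had an unadjusted p under 0.05, and 2 of 6 rose in WT (Bmp2 and Bmp5). Over all genes 1.14% were called in KO (0.55% higher and 0.594% lower in RV) and 0.984% in WT (0.764% higher and 0.22% lower). Without WT RV replicate 3, 321 genes were called in KO and 1734 in WT, against 208 and 179 with all arrays. The ventricles did not overlap for Bmp5 and Bmp7 in KO, against 19.7% of all genes (9.24% higher and 10.4% lower), nor for Bmp2 and Bmp5 in WT, against 15.7% (10.9% higher and 4.85% lower). The 2 comparisons of ventricles share no array, but the RV minus LV difference in WT and the KO minus WT differences share the WT arrays, so their values are not independent. Whether the genotype difference itself varies with the ventricle was tested by the interaction, KO minus WT in the right less that in the left ventricle. It was -0.86 for Bmp2 (SE 0.17, 95% interval -1.22 to -0.49) and -0.58 for Bmp5 (SE 0.18, 95% interval -0.96 to -0.20). Neither passed over all genes (adjusted p = 0.211 and 0.314, unadjusted p = 0.000197 and 0.00606), and only 4 genes of 18194, 0.022%, were called. For 0 of the other 4 members was the unadjusted p under 0.05.

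This test depended on WT RV replicate 3. Without that array the interaction was -0.985 for Bmp2 and -0.71 for Bmp5 and was called for both (adjusted p = 0.0219 and 0.0269), as it was for 1309 genes in all. With array weights it was -0.998 and -0.58 (adjusted p = 0.0166 and 0.0394), with 1364 genes called. With the control-transcript term, which marks the WT LV arrays and WT RV replicate 3 as high, it was -0.60 and -0.31 (adjusted p = 0.67 and 0.781). The size of that term rests on WT RV replicate 3 alone. Differences that take in WT LV are therefore less precise with it, and calls can be lost for that reason alone. In the right ventricle its fit gives the same values as leaving that array out, and so is no second check. For the left ventricle it gave Bmp2 at 1.155 and Bmp5 at 1.14, both called, and Bmp4 at -0.255 and Bmp10 at 0.54, neither called.

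**Figure D4:**
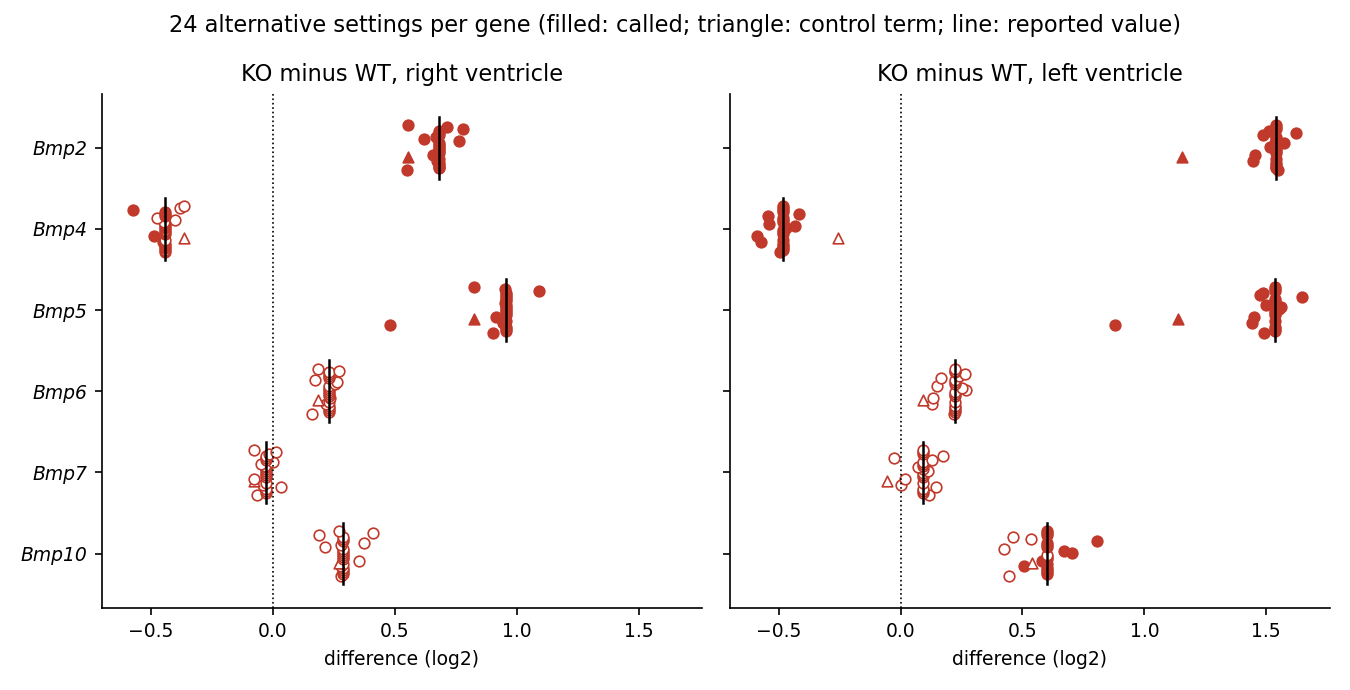
KO minus WT difference (x axis, log2) of each BMP ligand under 24 alternative settings, RV at the left and LV at the right; filled points are called, triangles mark the control-transcript term, and the vertical line is the reported value. Bmp2 and Bmp5 remain above 0 and called under every setting shown, of which the control term and the fit without WT RV replicate 3 coincide in RV, while calls of Bmp4 in RV and of Bmp10 in LV are lost under some.

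Likeness of profiles was measured as the root mean square difference over the 12 arrays after each gene's own mean was taken off, in log2 units. It is not scaled by spread, so genes that vary little, as Bmp6 and Bmp7 do, lie near others that vary little. Among the members, Bmp2 and Bmp5 were the closest pair at 0.21, and Bmp4 and Bmp5 the farthest at 0.93. Of 11361 genes above the median of all values, the nearest to Bmp2 were Ednrb, an endothelin receptor (0.16), Spata13 (0.16) and the transcription factor Sox11 (0.17). Nearest to Bmp5 were Spata13 (0.15), Fry (0.15) and Tmem108 (0.16), so that Spata13 stood near both. Bmp4 was nearest to Dennd10 (0.08), Nt5m (0.09) and Cracr2b (0.09), Bmp6 to Aurkb, a mitotic kinase (0.06), Jpt2 (0.07) and Smtnl2 (0.07), and Bmp7 to Vdac2 (0.06), St3gal5 (0.06) and Ankrd34a (0.06). Bmp10 had less close neighbours for its range, with Kif21b at 0.15, Arid4a at 0.17 and Kbtbd7 at 0.18.

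Genes that receive and limit BMP signals were set beside the ligands. Over all genes 30.9% were called in the left ventricle (18.6% higher, 12.3% lower). In the right ventricle 8.19% were called (4.61% higher, 3.58% lower). Of 8 receptor genes 6 rose and 0 fell in KO left ventricles, led by the type II receptor Bmpr2 (0.96, adjusted p = 0.00214), Acvr2b (0.64), Acvr1, a type I receptor (0.62), and Acvr2a (0.38). Eng, a coreceptor of endothelium, rose by 0.33 and the type I receptor Bmpr1a by 0.30, while Bmpr1b (0.43) and Acvrl1 (-0.37) were not called. The means of Bmpr1b lay below 5.67, the median of all values, in all 4 groups, and those of Acvrl1 did so in KO RV and KO LV. In the right ventricle only Acvr1 rose (0.45, adjusted p = 0.0343). Of 6 Smad genes 3 rose in the left, Smad6 (0.76) and Smad7 (0.56), both inhibitory, and Smad1 (0.53), and only Smad6 rose in the right ventricle (0.39, adjusted p = 0.0321).

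Among 21 measured antagonists and modulators 7 rose and 1 fell in KO left ventricles. Together these are 38.1% of the list, near the 30.9% of all genes called there. Bmper, which binds BMPs outside the cell, rose by 1.497 in the left (adjusted p = 0.000135) and by 0.77 in the right ventricle (adjusted p = 0.0241). Furin, a protease that cleaves BMP precursors, rose by 1.02, Crim1 by 0.73, the activin and BMP binder Fst by 0.63 and Twsg1, a modulator of chordin, by 0.47 in the left ventricle, and none of these 4 was called in the right. Fstl3 (0.40) and Chrdl2 (0.30) rose there too, and Chrdl1 fell by 0.32. The classical antagonists Nog (-0.11), Chrd (-0.18) and Grem1 (-0.14) were not called there. Of 9 other ligands measured, Gdf10 rose in the left (1.45, adjusted p = 0.000644) and Gdf3 fell in the right ventricle (-0.35, adjusted p = 0.0343). The means of Nog, Grem1, Chrdl1, Chrdl2 and Gdf3 lay below 5.67, the median of all values, in all 4 groups. Those of Fst and Gdf10 did so in all groups but KO LV, and that of Bmper did so in WT LV (5.02). Signal that low limits what these differences, or the lack of a call, can show.

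Response genes moved both ways. Of 12, 3 rose in KO left ventricles, Tbx20 (0.95), Msx2 (0.67) and Id2 (0.33), and 3 fell, Hey1 (-0.40), Id3 (-0.38) and Atoh8 (-0.29). Id1, a direct target of BMP Smads, differed by -0.02 (adjusted p = 0.863). In the right ventricle Tbx20 (0.49) and Id2 (0.46) rose and 0 fell, 16.7% of the list beside 8.19% of all genes called. The median difference in the left ventricle was 0.41 for receptors, 0.41 for Smads, 0.05 for antagonists and modulators and 0.04 for response genes, beside -0.01 over all genes, of which 30.9% were called. With the control-transcript term 0 of 9 other ligands, 0 of 8 receptors, 0 of 6 Smads, 1 of 21 antagonists and modulators and 0 of 12 response genes were called in the left ventricle, and the medians of these lists lay between 0.01 and 0.16. In that fit 197 genes were called in all. Left ventricle differences are less precise there, so these lost calls do not show what the control level accounts for. Without WT RV replicate 3, 0 receptors, 0 Smads, 0 antagonists and modulators and 0 other ligands were called in the right ventricle, and 1 response gene was. Of all 18194 genes 967 were called there, against 1490 with all arrays. The left ventricle then had 6 receptors, 4 Smads, 8 antagonists and modulators and 6 response genes called. Of all genes 6319 were called there, against 5617 with all arrays.

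**Figure D5:**
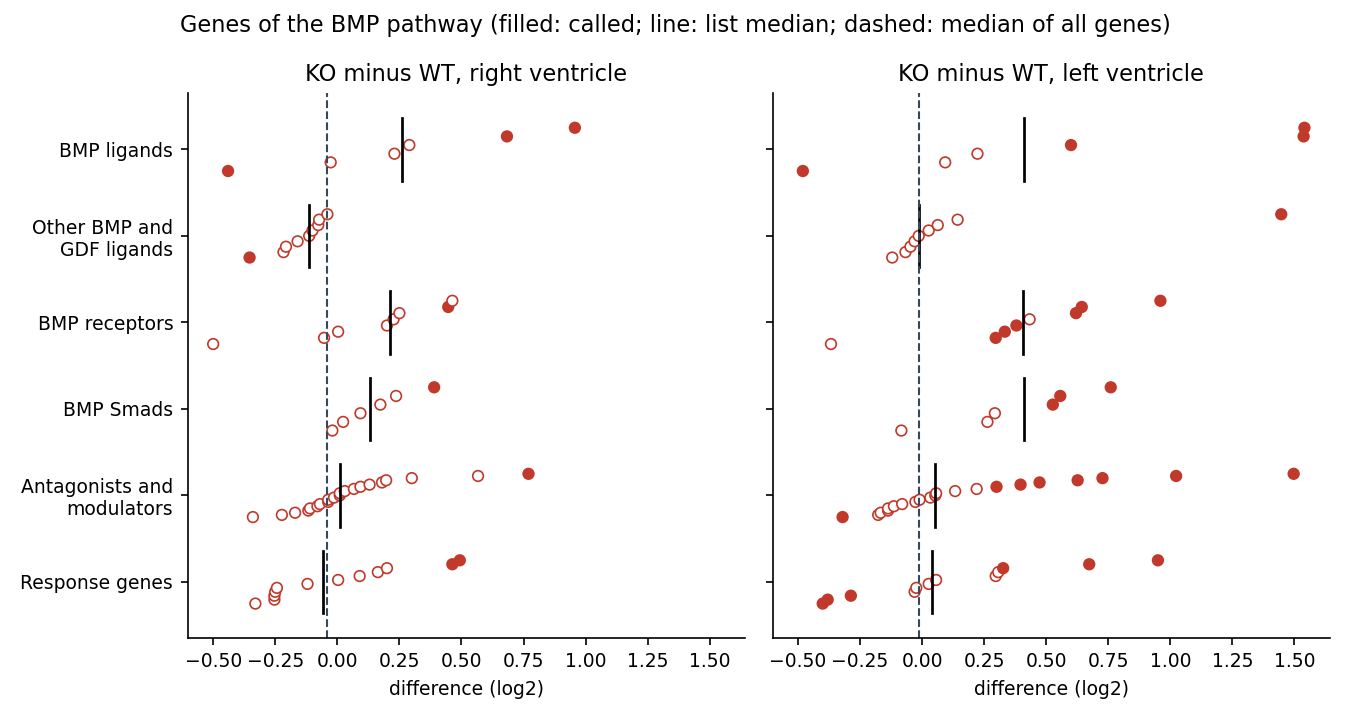
KO minus WT difference (x axis, log2) of the genes of 6 BMP lists (rows), RV at the left and LV at the right; each point is a gene, filled where called, the short vertical line is the list's median and the dashed line the median of all genes. In LV 6 of 8 receptors and 3 of 6 Smads are called higher, beside 18.6% of all genes, and the response genes lie on both sides of 0.

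Markers of cells that make or receive BMPs were measured in the same pools, and their part in the ligand differences was not tested. Their counts stand beside 30.9% of all genes called in the left (18.6% higher) and 8.19% in the right ventricle (4.61% higher). A linear sum mostly follows the brightest genes of its list and is no level of a whole tissue. In KO LV the brightest were Cacna2d2 (log2 mean 9.68) for the canal, Nppa (14.64) for trabeculae and Tbx20 (12.48) for cushions. Some genes, such as Rspo3, Nppa and Hapln1, count in more than 1 list. Summed linear values of 5 atrioventricular canal markers ran from 1164 to 1414 in KO RV, 749.7 to 1472 in WT RV, 1037 to 1289 in KO LV and 568.7 to 663.6 in WT LV. Without replicate 3 the WT RV sums were 1350.3 and 1472. Tbx2 and Tbx3, which define that tissue, averaged below the median of all values. In KO LV 2 of 5 rose, Rspo3 (0.95) and Cacna2d2 (1.09), and in KO RV 1 did, Rspo3 (0.68). The sum of 8 trabecular markers ran from 28234 to 34267 in KO RV, 21158 to 25570 in WT RV, 38535 to 40217 in KO LV and 29482 to 31216 in WT LV. Of these, 4 rose and 1 fell in KO LV and 2 rose in KO RV, with the mean of Gja5 below the median of all values. For 9 cushion and valve markers the sum was 9616 to 12735 in KO RV, 6743 to 8727 in WT RV, 11026 to 12996 in KO LV and 6365 to 7562 in WT LV. In each ventricle 3 of 9 rose, Vcan, Hapln1 and Tbx20, and 0 fell. In the left ventricle these 33.3% stand beside 30.9% of all genes called in either direction and 18.6% called higher.

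Among 6 endocardial markers 3 rose and 1, Cytl1, fell in KO RV, with sums of 4300.0 to 5165 in KO RV and 3197 to 4497 in WT RV. In KO LV 4 rose and Cytl1 fell, with 4560 to 5203 in KO LV and 3085 to 3616 in WT LV. Without replicate 3 the WT RV sums were 4419 and 4497. Of 8 leukocyte markers 3 rose in KO RV and 8 in KO LV, with sums of 1981 to 2366 in KO RV, 1486 to 1686 in WT RV, 3113 to 3502 in KO LV and 1663 to 1790 in WT LV. Of 5 outflow tract markers 2 rose in each ventricle, Sema3c and Rspo3, and Isl1 and Tdgf1 averaged below the median of all values. Of 7 endothelial markers 0 were called in KO RV, and 4 rose and 1 fell in KO LV. Heart muscle markers moved too. Of 7 ventricular markers 1, Hey2, rose in KO RV and 4 rose in KO LV (Myh7, Irx4, Hey2 and Actn2). Of 6 atrial markers 1, Myl7, rose in KO RV and 3 rose in KO LV (Myl4, Nppa and Nr2f2). Liver markers, which are no part of a ventricle, summed to 931.3 to 2292 in KO RV, 1538 to 10112 in WT RV, 427.4 to 1011 in KO LV and 1125 to 4873 in WT LV. Of 8 measured, 2 fell in KO LV, Alb (-2.26, limma adjusted p = 0.0246) and Afp (-2.42, adjusted p = 0.0291), where 12.3% of all genes fell. In KO RV 0 were called, and Ahsg, Apob and Fgb averaged below the median of all values. Lists of epicardial, erythroid, lung and skeletal muscle markers also held called genes in KO LV with all arrays and are not described here.

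Without WT RV replicate 3, the markers that rose in KO RV numbered 0 of 5 canal, 1 of 5 outflow tract, 1 of 6 endocardial, 2 of 8 leukocyte and 0 of 7 ventricular markers, while the trabecular, cushion and atrial counts were 2, 3 and 1 as before. The median endocardial difference in the right ventricle was then 0.21, against 0.43 with all arrays. Of all 18194 genes 967 were then called in that ventricle, against 1490 with all arrays. With the control-transcript term, 2 of 8 leukocyte markers rose in KO LV and 0 of the canal, trabecular, cushion, outflow tract, endocardial, endothelial, ventricular and atrial markers did. The 1 endocardial marker called in that fit was lower in KO LV. Its left ventricle differences are less precise, and 197 genes were called there in all.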

How the data were processed

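Each of 12 arrays has log2 values of 45101 probe sets, deposited after RMA, per the submitters' processing notes. Biotin-labelled cRNA came from 100 ng of total RNA, per the labels' protocols. The log2 scale was read from RMA's output and the range of the values, 2.42 to 15.19. No build or RMA version is named in the labels. RMA by design equalises the distributions of arrays, so a shift shared by most genes would not show. Columns were matched to samples by label, and 0 were left unused. Of the probe sets 34958 had 1 gene symbol, 932 several and 9211 none, and for each of 18194 genes the set with the highest mean was used, with no filter on dim genes.

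All 4 group means were fitted in one limma model (lmFit, eBayes), and p-values were adjusted by Benjamini-Hochberg over all genes, called under 0.05. Replicates are pools of embryos, so p-values measure the spread between pools. Arrays in a group number 3, which limits precision. Single-gene permutation tests were exact and 2-sided. The fit was tested on simulated data. Members, lists and settings were chosen with earlier results of these data known. The rule for names took all members, Nos3, called genes of the BMP lists and the 3 nearest profiles per member, predicted genes and clone names left out. Marker genes and uncalled pathway genes were named after their values were seen. Other settings were a filter on dim genes, further normalization, variance options, array weights, replicate blocks, other uses of probe sets, stricter thresholds, a control-transcript term and leaving out each array. That term is a 0 or 1 mark for 4 arrays. Counts of the gene lists without WT RV replicate 3 and with that term, and marker sums without that array, were added after seeing the data. Scanner files were not used here.

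Replicate numbers were checked by the correlation over genes of deviations from group means. Same-numbered arrays gave 0.210, 0.291 and 0.265 between KO RV and KO LV and 0.111, 0.262 and 0.306 between KO RV and WT RV. WT RV with WT LV gave 0.231, -0.008 and 0.145, and KO LV with WT LV gave 0.011, 0.144 and 0.423. Differently numbered arrays of 2 groups gave -0.332 to 0.264, so the ranges overlap. No label pairs arrays, and this check does not decide whether a number marks a shared origin. Fits used limma 3.58.1 in R 4.3.3, and the rest Python 3.11.15 with pandas 2.3.3, scipy 1.17.1 and matplotlib 3.10.9.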

Additional observations from a re-analysis of the deposited data

How the results depend on the processing

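Bmp2 and Bmp5 in KO minus WT remained called in both ventricles under all 24 alternatives, of which the control term and the fit without WT RV replicate 3 coincide in the right ventricle and for RV minus LV in KO. Of 732 member values under an alternative, 680 kept direction and call, 26 lost a call, 5 gained one and 21 changed sign, the last all in differences that were not called. Signal near background limits Bmp10 and 2 sets of Bmp5, and 4 members rest on 1 probe set. No cause was tested.

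The left ventricle call of Bmp10 (0.60) was lost with array weights (0.45), a threshold of 0.01 (0.60) and the control-transcript term (0.54), and ran from 0.425 to 0.805 with 1 array left out. That of Bmp4 (-0.48) was lost with the control term (-0.255). In the right ventricle Bmp4 (-0.44) was not called with every probe set on its own (-0.44), at 0.01 (-0.44), in the 2 groups alone (-0.44) or with the control term (-0.365), and ran from -0.575 to -0.365 with 1 array left out. RV minus LV in WT lost its call for Bmp2 at 0.01 (0.70), in the 2 groups alone (0.70) and with the control term (0.44), and for Bmp5 with the mean of probe sets (0.46), in the 2 groups alone (0.78) and with the control term (0.51). With 1 array left out these were 0.60 to 0.83 and 0.64 to 0.91, and calls were lost without WT LV replicate 1 and WT RV replicates 1 or 2 (Bmp2) and WT LV replicate 2 (Bmp5). Array weights called the interaction of Bmp2 (-0.998) and Bmp5 (-0.58) and RV minus LV in WT of Bmp7 (0.31) and Nos3 (0.46). Left-out arrays gave interactions of -0.985 to -0.76 for Bmp2 and -0.71 to -0.44 for Bmp5. Nos3 in the left ventricle was not called with every probe set on its own (-0.41), at 0.01 (-0.41), with the control term (-0.87) or without any 1 of 6 left ventricle arrays (-0.445 to -0.365 over all 12). With 1 array left out it was 0.195 to 0.48 for RV minus LV in WT and -0.038 to 0.19 in KO.

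Signs changed for RV minus LV of Bmp4 in WT with renewed quantile normalization (-0.0056) and median centring (-0.012), for the interaction of Bmp6 with array weights (-0.056), for Bmp7 in KO minus WT with the mean of probe sets (0.032, right) and the control term (-0.057, left), and for the interaction with the control term of Bmp4 (-0.11) and Nos3 (0.05). With 1 array left out, KO minus WT of Bmp7 was -0.077 to 0.013 in the right and -0.025 to 0.175 in the left ventricle, the interaction -0.095 to 0.115 for Bmp4 and -0.05 to 0.082 for Bmp6, and RV minus LV in WT -0.02 to 0.325 for Bmp10 and -0.048 to 0.16 for Bmp4.

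Genes called numbered 5617 in the left and 1490 in the right ventricle, 4 for the interaction, 208 for RV minus LV in KO and 179 in WT. At 0.01 these were 3093, 533, 2, 93 and 60, and with the control term 197, 967, 1, 321 and 34. Array weights gave 2858 in the right ventricle, 1364, 684 and 2212 for the last 4 comparisons. The left ventricle had 10486 with every probe set on its own. Within the 2 groups alone 928, 314 and 41 were called in the right ventricle, KO and WT. Renewed quantile normalization and the mean of probe sets each gave 2 for the interaction. With 1 array left out counts ran from 762 to 1813 in the right ventricle, 2 to 1309 for the interaction, 104 to 321 for RV minus LV in KO and 62 to 1734 in WT.

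The replicate number as a fixed or random block changed the call of 0 of 78 member values. For the interaction the fixed replicate block called 1 gene within genotype and 2 over all groups and the random block 9, and for RV minus LV the random block called 331 in KO and 435 in WT.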
